A study of Mus musculus with 6 samples.

Results

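The 10 genes described here are transcripts used as markers of 2 blood cell types in the mouse heart ventricle. Of these, 6 mark neutrophils (S100a8, S100a9, Mmp8, Chil3, Csf3r and Lcn2) and 4 mark platelets and the megakaryocytes that shed them (Ppbp, Pf4, Itga2b and Gp9). They were chosen by name, and every array probe whose RefSeq accession belongs to 1 of these symbols was taken. This gave 1 probe per gene, 10 of the 25228 probes and 10 of the 14555 named genes that passed a filter on dim signal. All 10 were well above background on all 6 arrays. The genes were picked with earlier results of these data known, and the high Ppbp signal on 1 control array was among them.

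The arrays measured ventricular RNA of female C57BL/6N mice aged 21 weeks. The sleep of 1 group was fragmented for 5 weeks (3 arrays), and the control group was left undisturbed over that time (3 arrays). No genotype, drug or diet is given for either group. The labels do not state that the arrays came from separate animals or whether hearts were pooled or perfused, so the p-values rest on the variation among these samples alone, and that variation may be technical.

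Neutrophils are short-lived white blood cells that carry granules of proteases and antimicrobial proteins and leave the bone marrow under the control of granulocyte colony-stimulating factor. Platelets have no nucleus, inherit their RNA from megakaryocytes, and hold chemokines in alpha granules that they release on activation. Ventricle RNA can hold transcripts of blood cells left in the vessels and of cells that have entered the muscle, and the share of each was not measured. In such bulk RNA, fewer cells of a type and less RNA per cell cannot be told apart.

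The promoters of the 5 genes whose signal stood at least 1 log2 unit higher on control replicate 2 than on both other controls (S100a8, S100a9, Ppbp, Pf4 and Gp9) are shown here, since these genes carry most of the spread reported below. Each is 300 bases, 250 before and 50 after the gene's start, from RefSeq on GRCm38.p6, written 5′ to 3′ on the gene's own strand. Capitals mark the letters TATAAA, a core form of the TATA box, and AGATAA, a form of the motif that GATA factors bind, on either strand.
S100a8 (chr3:90668821-90669120, plus strand): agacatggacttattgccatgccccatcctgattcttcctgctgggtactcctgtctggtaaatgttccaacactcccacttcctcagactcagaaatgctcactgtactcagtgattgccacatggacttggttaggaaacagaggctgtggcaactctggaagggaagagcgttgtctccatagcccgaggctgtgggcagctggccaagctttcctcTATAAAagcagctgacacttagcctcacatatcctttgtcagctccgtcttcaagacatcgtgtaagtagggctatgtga
S100a9 (chr3:90695672-90695971, minus strand): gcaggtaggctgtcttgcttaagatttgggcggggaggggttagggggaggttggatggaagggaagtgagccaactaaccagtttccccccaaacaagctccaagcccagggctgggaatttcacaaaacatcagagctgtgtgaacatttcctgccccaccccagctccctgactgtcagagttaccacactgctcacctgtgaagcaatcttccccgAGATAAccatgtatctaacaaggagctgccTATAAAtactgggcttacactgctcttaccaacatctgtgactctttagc
Ppbp (chr5:90768268-90768567, plus strand): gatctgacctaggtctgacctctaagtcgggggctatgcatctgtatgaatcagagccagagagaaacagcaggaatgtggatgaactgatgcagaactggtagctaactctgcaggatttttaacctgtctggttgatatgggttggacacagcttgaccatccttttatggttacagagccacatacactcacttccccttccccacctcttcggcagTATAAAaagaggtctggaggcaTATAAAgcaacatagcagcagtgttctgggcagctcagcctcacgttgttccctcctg
Pf4 (chr5:90772185-90772484, plus strand): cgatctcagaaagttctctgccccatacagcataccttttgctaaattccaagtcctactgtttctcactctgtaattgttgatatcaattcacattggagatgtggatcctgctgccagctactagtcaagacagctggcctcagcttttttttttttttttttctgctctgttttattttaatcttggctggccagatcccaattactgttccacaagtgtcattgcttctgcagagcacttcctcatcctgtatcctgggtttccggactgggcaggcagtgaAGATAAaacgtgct
Gp9 (chr6:87777820-87778119, plus strand): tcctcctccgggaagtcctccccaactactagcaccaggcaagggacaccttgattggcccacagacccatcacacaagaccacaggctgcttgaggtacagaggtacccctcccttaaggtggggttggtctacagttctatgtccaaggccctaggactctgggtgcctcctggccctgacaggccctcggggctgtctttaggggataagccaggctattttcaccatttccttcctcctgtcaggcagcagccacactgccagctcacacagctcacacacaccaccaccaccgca

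S100a8 and S100a9 are direct neighbours on chromosome 3, and Ppbp and Pf4 are direct neighbours on chromosome 5. TATAAA was found in the promoters of 5 of the 10 genes (S100a8, S100a9, Mmp8, Chil3 and Ppbp), against 13.6% of 32851 promoters. AGATAA was found in 3 of the 10 (S100a9, Chil3 and Pf4), against 11.2%. The core of the ETS factor motif, AGGAAG, was in 8 of the 10, against 35.4%, and TTGCNNAA, a form of the C/EBP motif, was in 4 of the 10 (S100a9, Mmp8, Lcn2 and Pf4), against 10.8%. Both strands were searched and no matches of different motifs overlapped. Counted from the gene's start as base 1, TATAAA began at -30 in S100a8 and at -30 and -8 in Ppbp. It began at 1 in S100a9 and at -3 in Chil3. In Mmp8 the match was on the opposite strand, and its first base on the gene's own strand was -3. A match is a description of the letters and shows neither binding nor a working TATA box.

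Signals are given as scaled log2 signal, the log2 of the scanner's processed signal minus the 75th percentile of the same array. Differences are sleep fragmented minus control, and an adjusted p is limma's, adjusted by the Benjamini-Hochberg method across the 25228 kept probes. Each array had 59.2% to 72.6% of 39429 probes well above background. Sleep fragmented replicate 1 had the lowest share and the dimmest signal, with a 75th percentile of 123, against 204 to 252 for the rest. The 2 groups were scanned separately, so scan and group cannot be told apart. Cardiomyocyte markers were bright on every array (8 of 8 kept, mean scaled log2 signal 6.21 to 6.89 on single arrays). Of 55 other neutrophil genes on the array, 13 were well above background on none of the 6 arrays, as were 2 of 30 other platelet genes.

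None of the 10 genes differed between sleep fragmented and control ventricles past an adjusted p of 0.05, where the background was 0% (0 of 25228 probes). At an unadjusted p under 0.05 the count was likewise 0 of 10, with 2.91% of all kept probes passing, and none of the 10 passed that limit with at least a 1.5-fold change (1.93% of probes). In 0 of 10 genes did the 3 sleep fragmented arrays lie apart from the 3 controls, against 7.27% of probes. The number of genes with an unadjusted p under 0.05 changed with the fit. It was 4 of 10 with array weights (Chil3, Mmp8, Itga2b and Gp9), where 23.8% of all probes passed, and 2 of 10 with barcode position as a block (Mmp8 and Chil3), where 7.97% passed. It was 3 of 10 without control replicate 3 (Chil3, Mmp8 and Itga2b, against 12% of probes) and 2 of 10 without control replicate 1 (S100a8 and S100a9, against 1.88%). It was 1 of 10 without control replicate 2 (Gp9, against 2.03%), without sleep fragmented replicate 2 (Mmp8, against 4.86%) and with normexp background correction (S100a9, against 3.39%). The differences were positive for 4 genes and negative for 6, with a median of -0.13 (neutrophil genes -0.27, platelet genes -0.13) against 0.08 over all kept probes. Intervals were wide for the genes with a high control replicate 2, so these arrays could not resolve even a 2.21-fold difference in S100a8.

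**Figure D1:**
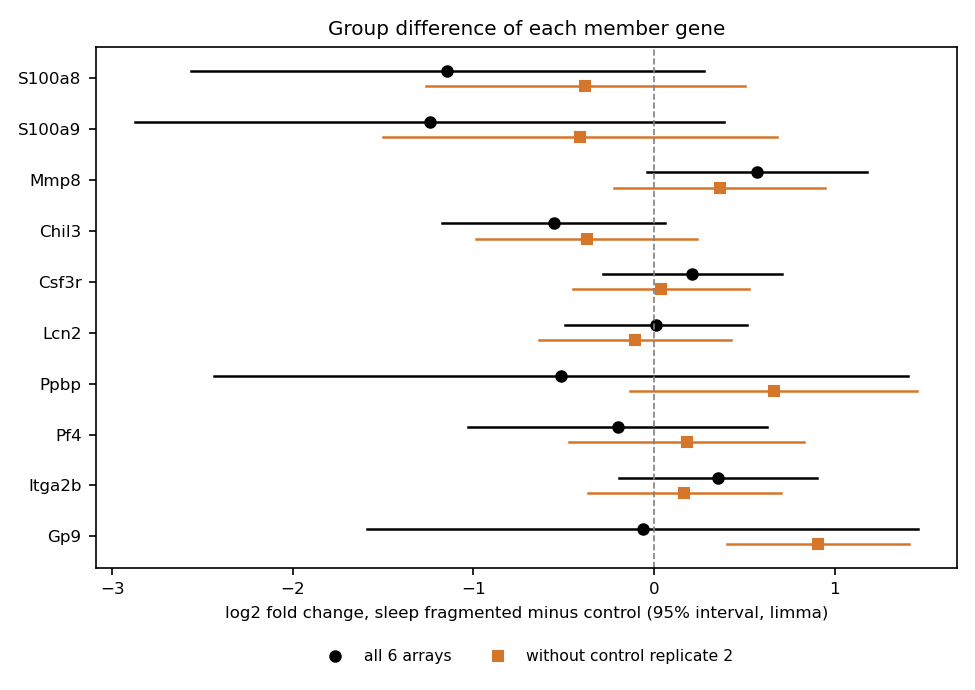
Log2 difference, sleep fragmented minus control, for each of the 10 genes (x axis, log2 units) with 95% intervals from limma, over all 6 arrays and without control replicate 2. With all arrays every interval spans 0; without control replicate 2 Gp9 stands at 0.91, and Ppbp and Pf4 lie on the positive side of 0.

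S100a8 and S100a9 encode the 2 subunits of calprotectin, a calcium-binding protein that makes up much of the neutrophil cytosol and acts as an alarm signal when released. S100a8 had a scaled log2 signal of -2.28, -3.06 and -2.88 on the sleep fragmented arrays (replicates 1, 2 and 3, as throughout), against -3.11, -0.07 and -1.61 on the control arrays. S100a9 had -0.62, -1.72 and -1.24 on the sleep fragmented arrays, against -1.76, 1.71 and 0.19 on the control arrays. For both genes control replicate 2 was the highest of the 6 arrays and control replicate 3 the next. With this scaling control replicate 1 was the lowest, so that the control values enclosed all sleep fragmented values. That order at the low end depended on the scaling. Under quantile normalization the lowest array was sleep fragmented replicate 3 for S100a8 (4.61, against 4.66 on control replicate 1). For S100a9 it was then sleep fragmented replicate 2 (5.98, against 6.01). The difference was -1.15 ± 0.63 for S100a8 (SE, 3 arrays a group; 2.21-fold lower, adjusted p = 0.938). For S100a9 it was -1.24 ± 0.72 (2.37-fold lower, adjusted p = 0.938). The 95% interval ran from -2.57 to 0.27 for S100a8 and from -2.87 to 0.39 for S100a9. The S100a8 probe is dim. Its unscaled processed signal was 25.3, 26.3 and 27.6 intensity units on sleep fragmented arrays, against 29.2, 232 and 67.9 on control arrays. With normexp background correction the difference was -0.49 for S100a8 and -0.96 for S100a9. The 2 subunits followed one another closely, with a root mean square difference of 0.18 log2 units between their centred profiles.

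The calprotectin difference changed in size with the control array left out, and control replicates 1 and 2 moved it in opposite directions. Without control replicate 2 it was -0.38 for S100a8 (95% interval -1.26 to 0.50) and -0.41 for S100a9 (-1.50 to 0.68). Without control replicate 1, the lowest array with this scaling, it was -1.90 for S100a8 (95% interval -2.98 to -0.83) and -2.15 for S100a9 (-3.29 to -1.01). Both then had an unadjusted p under 0.05, as 1.88% of all probes had, and an adjusted p = 0.977. With arrays weighted by their fit, the difference was -0.0026 for S100a8 and 0.19 for S100a9. The direction of both was the same when any 1 of the 6 arrays was left out.

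Mmp8, the collagenase stored in neutrophil granules, had -1.83, -2.55 and -2.08 on the sleep fragmented arrays, against -2.74, -3.14 and -2.29 on the control arrays. The highest array was sleep fragmented replicate 1, the lowest was control replicate 2, and the groups overlapped through sleep fragmented replicate 2 and control replicate 3. The difference was 0.57 ± 0.27 (1.48-fold, 95% interval -0.04 to 1.18, adjusted p = 0.938). The Mmp8 probe is dim, and the 3471 kept probes within 0.25 log2 units of its mean level showed a like profile. Their median deviation from each probe's own mean was 0.32 on sleep fragmented replicate 1 and -0.49 on control replicate 2, against 0.61 and -0.70 for Mmp8. Their median difference between the groups was 0.26. Under quantile normalization, which gives all arrays the same distribution of signal, the Mmp8 difference was 0.34. The part of this level-dependent shift in the Mmp8 value was not tested further.

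Chil3 encodes a chitinase-like protein that mouse neutrophils and macrophages both make. It has a close paralog next to it, Chil4, and cross-hybridisation of the probe was not tested. Its scaled log2 signal was -1.32, -1.06 and -1.47 on the sleep fragmented arrays, against -0.49, -0.36 and -1.34 on the control arrays. Control replicates 1 and 2 lay above all sleep fragmented arrays, while control replicate 3 lay among them. The difference was -0.56 ± 0.27 (1.47-fold lower, 95% interval -1.17 to 0.06, adjusted p = 0.938). Without control replicate 3 it was -0.86 (adjusted p = 0.386), where 12% of all probes had an unadjusted p under 0.05.

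Lcn2, the siderophore-binding protein lipocalin 2 of the specific granules, is also made by epithelia and by other inflamed tissues. It had 1.00, 0.39 and 0.65 on the sleep fragmented arrays, against 0.66, 0.44 and 0.92 on the control arrays. The 2 groups covered almost the same range. The difference was 0.01 ± 0.22 (95% interval -0.49 to 0.52, adjusted p = 0.993).

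Csf3r, the receptor for granulocyte colony-stimulating factor, had 5.38, 5.21 and 5.37 on the sleep fragmented arrays, against 5.49, 4.76 and 5.08 on the control arrays. Its probe was bright on every array, at 37.1 to 41.7 times the 75th percentile in sleep fragmented and 27.2 to 45.0 times in control ventricles. The highest value was that of control replicate 1 and the lowest that of control replicate 2, so the sleep fragmented arrays lay inside the control range. Under quantile normalization the highest value was instead that of sleep fragmented replicate 3. The difference was 0.21 ± 0.22 (95% interval -0.28 to 0.71, adjusted p = 0.938). For comparison, Ryr2, the dimmest of the 8 cardiomyocyte genes listed, ran from 3.66 to 4.24. The others were brighter than Csf3r on every array, with Tnni3 from 5.78 to 6.63. The neutrophil granule genes Mmp9, Ltf and Mpo were well above background on 0 of 6 arrays, while Elane, Prtn3 and Ctsg were so on 6 of 6. Whether the Csf3r signal came from neutrophils, and how specific its probe is, was not tested.

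**Figure D2:**
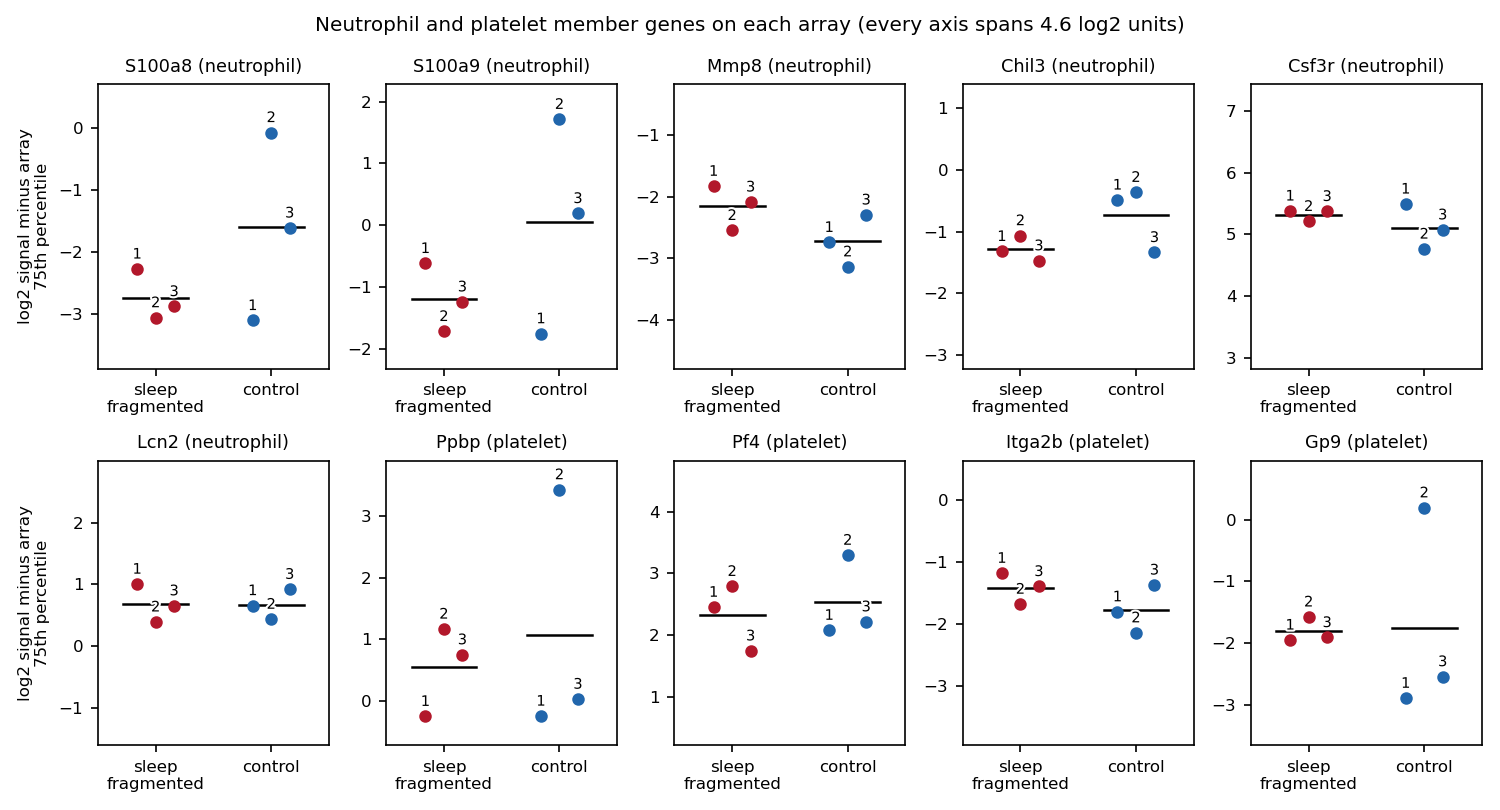
Scaled log2 signal (log2 of processed signal minus the array's 75th percentile, y axis) of the 10 genes, 1 panel each, with sleep fragmented arrays left of control arrays; points are single arrays with their replicate number and bars are group means. Control replicate 2 is the highest point for S100a8, S100a9, Chil3, Ppbp, Pf4 and Gp9 and the lowest for Mmp8, Csf3r and Itga2b.

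Ppbp and Pf4 are the CXC chemokines that platelets store most abundantly in their alpha granules. Pf4 (platelet factor 4) is also made by some tissue macrophages. Ppbp had -0.25, 1.17 and 0.75 on the sleep fragmented arrays, against -0.24, 3.42 and 0.03 on the control arrays. In unscaled processed signal these are 103, 494 and 343 against 213, 2607 and 212 intensity units. Control replicate 2 stood apart, at 11.5 times the geometric mean of the other 2 controls in scaled signal, while the sleep fragmented arrays ranged from the level of the lower controls to above it. The difference was -0.51 ± 0.85 (1.43-fold lower, 95% interval -2.44 to 1.41, adjusted p = 0.944). Leaving out control replicate 2 turned its sign, to 0.66 (95% interval -0.13 to 1.46).

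Pf4 had 2.45, 2.79 and 1.75 on the sleep fragmented arrays, against 2.08, 3.30 and 2.22 on the control arrays. Control replicate 2 was again the highest array and sleep fragmented replicate 3 the lowest, and the groups overlapped. The difference was -0.20 ± 0.37 (95% interval -1.03 to 0.63, adjusted p = 0.948). It was 0.18 without control replicate 2 and 0.09 without sleep fragmented replicate 3. For Pf4 control replicate 2 stood 1.15 log2 units above the mean of the other controls, against 3.53 for its neighbour Ppbp.

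Gp9 and Itga2b encode platelet surface receptors, glycoprotein IX of the von Willebrand factor receptor and the alpha chain (CD41) of the fibrinogen receptor. Gp9 had -1.95, -1.57 and -1.91 on the sleep fragmented arrays, against -2.89, 0.19 and -2.54 on the control arrays. The sleep fragmented arrays lay close together, above control replicates 1 and 3 and below control replicate 2. The difference over all arrays was -0.06 ± 0.67 (95% interval -1.59 to 1.46, adjusted p = 0.989). Without control replicate 2 it was 0.91 ± 0.23 (95% interval 0.40 to 1.41, adjusted p = 1). Gp9 was then the only 1 of the 10 genes with an unadjusted p under 0.05 and at least a 1.5-fold change, a limit that 1.58% of all probes passed without that array. The Gp9 probe is dim, with unscaled signals of 31.8, 73.9 and 54.3 on sleep fragmented and 33.9, 278 and 35.6 on control arrays. The 3054 kept probes of like level deviated by 0.26, -0.08 and 0.12 on sleep fragmented and by -0.11, -0.38 and 0.17 on control arrays. Their median group difference over all arrays was 0.21. It keeps control replicate 2, so it cannot be set against the 0.91 found without that array. The part of the level-dependent shift in the Gp9 value was not tested.

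Itga2b had -1.18, -1.68 and -1.40 on the sleep fragmented arrays, against -1.81, -2.15 and -1.37 on the control arrays. Its lowest value was on control replicate 2 and its highest on sleep fragmented replicate 1, and control replicate 3 lay among the sleep fragmented arrays. The difference was 0.35 ± 0.24 (1.28-fold, 95% interval -0.19 to 0.90, adjusted p = 0.938). Its centred profile lay nearer to that of Mmp8 (root mean square difference 0.13) than to those of the other platelet genes. The 2833 kept probes of like level deviated by 0.23 on sleep fragmented replicate 1 and by -0.33 on control replicate 2, against 0.42 and -0.55 for Itga2b. Their median group difference was 0.18, and the part of this shift in the Itga2b value was not tested further.

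The spread within groups was larger than the differences between them for several of the genes. The SD among arrays was larger in the control group for 9 of 10 genes (all but Lcn2), against 54.4% of kept probes. The count was 6 without control replicate 2, 6 without control replicate 3 and 10 without control replicate 1. Since the high Ppbp value on control replicate 2 was known when the genes were chosen, the count is no independent support. For Ppbp the SD was 0.73 among sleep fragmented and 2.04 among control arrays, and for S100a9 it was 0.55 and 1.74. For S100a8 it was 0.41 among sleep fragmented and 1.52 among control arrays, and for Gp9 it was 0.20 and 1.69. Over all kept probes the median SD was 0.24 among sleep fragmented and 0.25 among control arrays. A control SD at least as large as that of Ppbp was found for 0.0793% of kept probes. The share was 0.119% for S100a9, 0.135% for Gp9 and 0.174% for S100a8. By contrast Mmp8 (0.36 among sleep fragmented and 0.42 among control arrays) and Lcn2 (0.31 and 0.24) spread about equally in both groups.

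**Figure D3:**
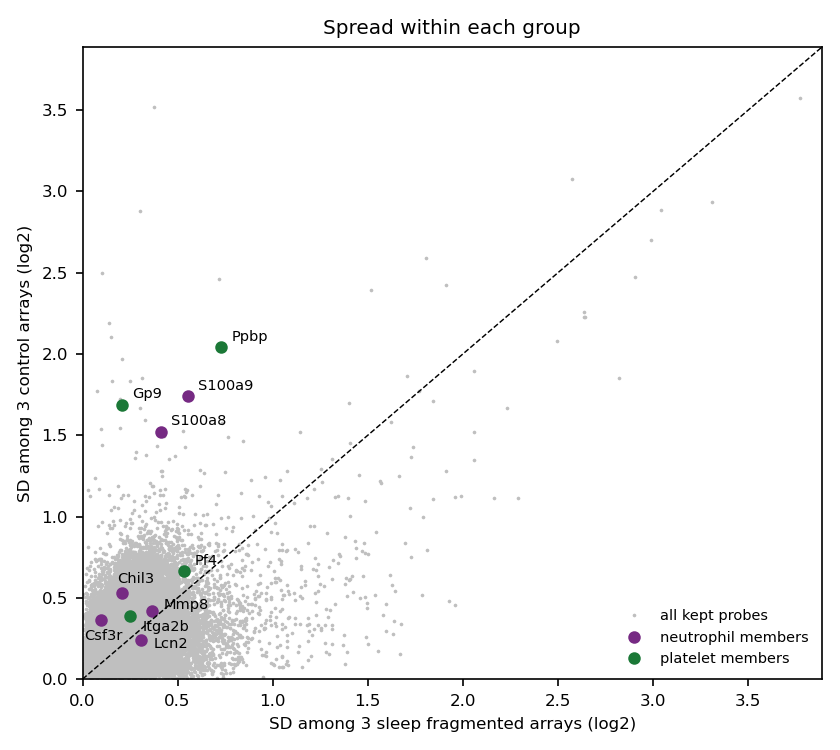
SD of scaled log2 signal among the 3 sleep fragmented arrays (x axis, log2 units) against the 3 control arrays (y axis) for all 25228 kept probes, with the 10 genes coloured by cell type; the dashed line marks equal SD. Ppbp, S100a9, Gp9 and S100a8 lie far above the line, with control SDs of 1.52 to 2.04.

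Control replicate 2 was the highest of the 6 arrays for 6 of 10 genes (S100a8, S100a9, Chil3, Ppbp, Pf4 and Gp9), against 13.6% of kept probes. It was at least 1 log2 unit above both other controls for 5 of 10, against 0.824% of probes (208 of 25228). The same array was the lowest of the 6 for 3 of 10 genes (Mmp8, Csf3r and Itga2b), against 42% of probes. Sleep fragmented replicate 1, the dimmest array, was the highest for 3 of 10 (Mmp8, Lcn2 and Itga2b), against 33.3% of probes. Probes of like level did not share the high values. Their median deviation on that array was -0.45 for S100a8 (own value 2.10), -0.08 for S100a9 (2.29), 0.02 for Ppbp (2.61), 0.01 for Pf4 (0.86) and -0.38 for Gp9 (1.97). Since Ppbp's value on this array was known when the genes were chosen, these counts describe the array and are no independent support.

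The 6 arrays also fall into 3 barcode positions that each hold 1 array of either group and that coincide with the replicate numbers. Within them the S100a9 difference was 1.14, -3.44 and -1.43, and that of S100a8 was 0.83, -3.00 and -1.27. Gp9 gave 0.94, -1.77 and 0.63, and Ppbp gave 0.00 (to 2 decimals), -2.26 and 0.72. For these 4 genes the sign therefore changed between positions. Mmp8 was higher in the sleep fragmented array at all 3 positions (0.91, 0.59 and 0.21), and Chil3 was lower at all 3 (-0.83, -0.70 and -0.13). The share of all kept probes with the same sign at all 3 positions was not counted, so these signs are a description only.

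The genes nearest to the calprotectin profile, out of 13860 named genes searched over the 6 arrays, were Retnlg, Lck, Ly6d, Ifit3 and Cd52. Their root mean square differences from the mean of S100a8 and S100a9 were 0.50, 0.58, 0.59, 0.59 and 0.60 log2 units. Retnlg, a resistin-like gene expressed in mouse neutrophils, had -1.89, -2.64 and -2.31 on the sleep fragmented arrays, against -3.16, -0.79 and -1.84 on the control arrays. Lck is a T cell kinase and Cd52 a lymphocyte surface antigen. Ifit3, an interferon-induced gene, differed from the others in that its sleep fragmented values (0.46, 0.56 and -0.17) lay below all control values (0.92, 2.81 and 2.23). Its difference of -1.70 had an adjusted limma p of 0.938.

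Nearest to Ppbp were Plek, Clec1b, Ltb, Bcl2a1d and Cd79b, at 0.33, 0.36, 0.42, 0.53 and 0.56 log2 units. Plek, the platelet protein kinase C substrate pleckstrin that leukocytes also express, had 0.52, 1.57 and 1.13 on the sleep fragmented arrays, against 0.48, 3.23 and 0.69 on the control arrays. Clec1b (CLEC-2), the platelet receptor for podoplanin, had -0.86, -0.48 and -0.60 on the sleep fragmented arrays, against -1.26, 1.88 and -0.90 on the control arrays. Both were high on control replicate 2 alone. Ltb and Cd79b are expressed in lymphocytes, so the 5 nearest genes were not all platelet genes.

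Other genes of the same cells gave no call either. Of 58 further neutrophil genes, 55 were on the array and 29 passed the filter on dim signal. None of the 29 passed an adjusted p of 0.05 in limma, and 0 of 29 had an unadjusted p under 0.05. Their differences were positive for 23 and negative for 6, with a median of 0.16 and a range from -0.44 to 0.66, against a median of 0.05 over all 14555 kept named genes (8549 positive, 6006 negative). Many of the 29 are dim, and dim probes were shifted as a whole. Kept probes at the levels of Chil3, Itga2b and Mmp8 had median differences of 0.10, 0.18 and 0.26. The part of this level-dependent shift in the neutrophil values was not tested. The groups did not overlap in 1 of the 29 (Stfa3), a smaller share than the 7.27% of all kept probes. Control replicate 2 was the lowest array for 13 of the 29, against 42% of kept probes. It was the highest for 4 (Retnlg, Clec4d, Csf2rb and Alox5ap), against 13.6%, so both counts lay near the shares over all probes. On that array 2 of the 29 stood at least 1 log2 unit above both other controls (Retnlg and Hp), against 0.824% of kept probes. Hp, the haptoglobin gene, stood at least 1 log2 unit above both other controls there, as Retnlg did, but its values of -1.95, 3.14 and -0.07 on sleep fragmented and -2.97, 3.13 and 0.75 on control arrays were high in sleep fragmented replicate 2 as well.

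Of the neutrophil granule and cytosol genes 14 of 25 were kept, with a median difference of 0.15. The 4 with the smallest p were Stfa3, a stefin-type protease inhibitor (0.56 ± 0.25), Gda, guanine deaminase (0.60 ± 0.37), Wfdc21 (0.36 ± 0.22) and Ctsg, the granule protease cathepsin G (0.43 ± 0.32). Among receptors and adhesion genes 13 of 24 were kept, with a median of 0.16. Cxcr2, the receptor that draws neutrophils towards CXC chemokines, had 0.57 ± 0.27, and Ptafr, the receptor for platelet-activating factor, had 0.58 ± 0.29. Mrgpra2b had -0.44 ± 0.24, and Trem1, an activating receptor of myeloid cells, had 0.27 ± 0.21. Of 9 ligands and transcription factors 2 were kept, Cebpd (0.66 ± 0.34) and the chemokine Cxcl1 (-0.08 ± 0.23). The granule genes Mmp9, Ltf and Mpo, which mark neutrophils and their precursors, were well above background on 0 of 6 arrays. Camp was so on 1, while Elane, Prtn3, Ctsg, Pglyrp1 and Fcnb of the same list were so on 6 of 6.

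Of 31 further platelet genes, 30 were on the array and 23 passed the filter. None passed an adjusted p of 0.05 in limma, and 0 of 23 had an unadjusted p under 0.05. Their differences were positive for 14 and negative for 9, with a median of 0.08 and a range from -0.55 to 0.61. Control replicate 2 was the highest array for 10 of the 23, against 13.6% of kept probes, and the lowest for 8, against 42%. It stood at least 1 log2 unit above both other controls for 4 of them, Clec1b, Plek, Treml1 and Alox12, against 0.824% of kept probes. This list too was chosen with earlier results of these data known. Treml1, a receptor of platelet alpha granules, had -2.05, -2.06 and -1.95 on the sleep fragmented arrays, against -2.60, -0.30 and -2.24 on the control arrays. Alox12, the platelet 12-lipoxygenase, had -2.12, -1.52 and -1.11 on the sleep fragmented arrays, against -1.79, 0.17 and -1.51 on the control arrays. Both were high on that control array alone, as Gp9 was.

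Among platelet receptors 9 of 13 were kept, with a median difference of 0.13. Gp1bb, a partner of Gp9 in the von Willebrand factor receptor, had 0.51 ± 0.26 on its brightest probe and 0.15 on another. The thrombin receptor F2rl3 had 0.55 ± 0.31, the ATP-gated channel P2rx1 had 0.46 ± 0.29, and Itgb3, the partner of Itga2b in the fibrinogen receptor, had -0.24 ± 0.23. Unlike Gp9, Gp1bb was lowest on control replicate 2 (-2.53), with -1.36, -1.80 and -1.55 on sleep fragmented and -2.15 and -1.56 on the other control arrays. Of the granule, cytoskeleton and signalling genes 14 of 18 were kept, with a median of 0.06. Nrgn had -0.41 ± 0.23, the platelet tubulin Tubb1 had 0.41 ± 0.24, von Willebrand factor (Vwf), which endothelium also makes, had 0.61 ± 0.42, and thromboxane synthase (Tbxas1) had 0.27 ± 0.19. Gp5, the last subunit of the Gp9 complex, was well above background on 0 of 6 arrays, and Gp1ba on 1.

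**Figure D4:**
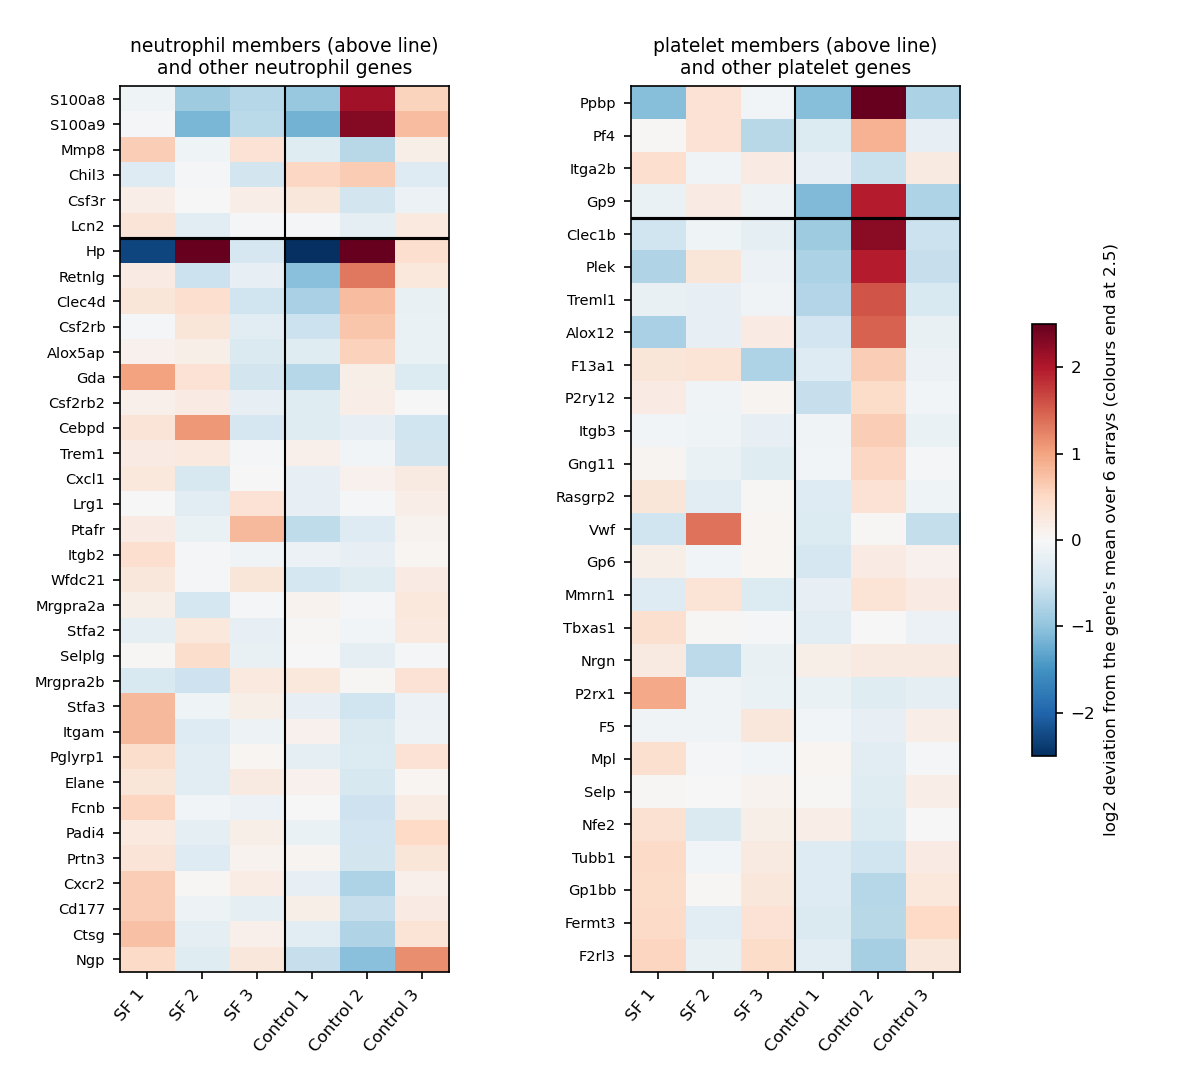
Log2 deviation of each gene from its own mean over the 6 arrays (colour, ends at 2.5), for the neutrophil genes (left) and platelet genes (right), with the 10 chosen genes above the horizontal line and sleep fragmented (SF) arrays left of control arrays. High values on control replicate 2 are seen for S100a8, S100a9, Ppbp, Gp9, Clec1b, Plek, Treml1, Alox12 and Retnlg, and most other neutrophil genes lack them.

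Markers of other blood cells moved in part with the same arrays. Each list is given as the mean deviation of its kept genes from the control mean. The lymphocyte list (9 of 12 genes kept) was at 0.09, -0.28 and -0.26 on sleep fragmented and at -0.49, 0.70 and -0.21 on control arrays. Cd79b and Jchain, genes of the B cell lineage, stood at least 1 log2 unit above both other controls on control replicate 2. The macrophage and monocyte list (10 of 13 kept) was at 0.13, 0.38 and -0.20 on sleep fragmented and at -0.24, 0.21 and 0.03 on control arrays. The part of these cells in the values of the 10 genes was not tested.

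The erythroid list did not follow the platelet genes. With 9 of 12 genes kept it was at 1.84, 0.80 and 0.51 on sleep fragmented arrays and at -0.10, 0.06 and 0.04 on control arrays, so control replicate 2 was level with the other controls. All 9 differences were positive, and 5 of 9 passed an unadjusted p under 0.05 with at least a 1.5-fold change, against 1.26% of probes in that direction, with none past the adjusted threshold. The atrial list (3 of 4 kept) was at -1.99, 3.24 and 0.15 on sleep fragmented and at -2.54, 2.58 and -0.04 on control arrays, so atrial transcripts were high on sleep fragmented replicate 2 and on control replicate 2. Within the sleep fragmented group, replicate 2 was the highest array for Ppbp, Pf4, Gp9 and Chil3 and the lowest for the other 6 genes. The endothelial list (6 of 6 kept) stayed between -0.17 and 0.06 on all arrays, and the list of eosinophil, basophil and mast cell genes (4 of 10 kept) was at 0.53, 0.18 and 0.17 on sleep fragmented and at -0.12, -0.07 and 0.19 on control arrays. The part of atrial tissue in the values of the 10 genes was not tested.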

How the data were processed

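Total RNA of 6 ventricle samples was labelled with Cy3 and hybridised to 1-colour arrays, per the labels' protocols. Scanner files were deposited for each array. Per the file headers, their processed intensity is background-subtracted and was made with Agilent Feature Extraction 11.0.1.1 on design 026655, while version 10.5.1.1 stands in the submitters' processing notes. The deposited spot flags are other values, 0 or 1. The authors also deposited a table of log2 values, and how it was made was not given in the sources used here. Its column medians were 5.54, it followed quantile-normalized values with r of at least 0.9998, it is not centred by gene, and it was used only as an alternative.

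The log2 of processed intensity was reduced by each array's 75th percentile over non-control probes. Control spots and outlier spots (180 to 240 on each array) were dropped, no spot was saturated, and spots of a probe were averaged. A probe was kept if it was well above background on all arrays of 1 or both groups (25228 of 39429). Probes were named by unversioned RefSeq accession (27234, 69.1%). A gene's brightest kept probe stood for it. Groups were compared with limma 3.58.1 in R 4.3.3 (lmFit, eBayes, prior degrees of freedom 5.02), two-sided, and the fit was tested on simulated data. The number of arrays limits the precision.

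The members, lists and tests were chosen with earlier results of these data known. The text names all 10 members, up to 4 genes of each other neutrophil or platelet list with the smallest p, the 5 genes nearest in profile to the calprotectin genes and to Ppbp, and genes that give the level of a cell type. Some genes were named for a high value on control replicate 2, for lack of overlap, or for lack or presence of signal. These, and Gp1bb's values by array, were chosen after their values were seen. Promoter sequences came from RefSeq (GRCm38.p6), which held all 10 members. The array was designed on another build, so no probe positions are given. Alternatives were quantile, median and normexp processing, the deposited table, other filters and priors, array weights, blocks, and leaving out each array. A result on another gene is not reported here.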

Additional observations from a re-analysis of the deposited data

How the results depend on the processing

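With each of 17 alternatives, 0 of the 10 genes, 0 other neutrophil genes and 0 other platelet genes passed an adjusted limma p of 0.05. Of 170 pairs of a gene and an alternative, 157 kept the direction of the difference and 13 turned it. The other filters, the trended and robust prior and the blocks left each gene's difference unchanged by design. The replicate block and the barcode block are also the same fit, counted as separate alternatives. Part of the 157 was therefore fixed in advance, and the count is no measure of stability. Array weights gave 0.19 for S100a9, -0.065 for Csf3r, -0.0011 for Lcn2, 0.70 for Ppbp and 0.83 for Gp9, and median scaling gave -0.20 for Lcn2. S100a8 is counted among the kept directions although array weights gave -0.0026, against -1.15 without them. When 1 array was left out, differences ran from -0.15 to 0.16 for Lcn2, from -1.17 to 0.66 for Ppbp, from -0.43 to 0.18 for Pf4 and from -0.64 to 0.91 for Gp9. Signs turned without control replicate 2 (Ppbp, Pf4 and Gp9 at 0.66, 0.18 and 0.91, Lcn2 at -0.11), without sleep fragmented replicate 1 (Lcn2 -0.15, Gp9 0.0054) and without sleep fragmented replicate 3 (Pf4 0.09). The cause of the other turned signs was not tested. The SD was larger among controls for 6 genes without control replicate 2, 6 without control replicate 3, and 10 without control replicate 1, against 9 with all arrays.

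Over all probes, the count past the adjusted threshold was 0, and 3 with normexp background correction and 53 with array weights. The count at an unadjusted p under 0.05 with at least a 1.5-fold change was 486, and 179 with normexp, 1413 without the filter on dim probes and 1266 with array weights. It ran from 338 to 2714 when 1 array was left out (1052 without sleep fragmented replicate 2, 2714 without control replicate 3). Of 486 probes 317 were higher, against 93 of 380 under quantile normalization, 92 of 667 under median scaling and 94 of 377 in the authors' deposited table. The median difference of all kept probes was 0.08 with the 75th percentile, 0.00 with quantile normalization, -0.13 with median scaling and 0.10 with normexp.

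Same-numbered arrays of the 2 groups deviated together with r of 0.06, 0.55 and 0.21, and not every array matched its own number best, so the numbers were not taken as pairs. With a replicate block, which is also the block of barcode position, 4 probes passed the adjusted threshold and 845 the second limit, and the smallest adjusted p among the 10 genes was 0.604 (Mmp8, Chil3 and S100a8). Averaging all probes of a gene was not run, since each of the 10 genes has 1 probe. For dim probes, the distance of the signal from background limits the values, and normexp background correction gave 0.29 for Mmp8, -0.27 for Chil3 and -0.49 for S100a8.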
